A study of Mus musculus with 8 samples.

Results

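Nuclear transcripts of 7 genes of adrenergic signalling were followed across the cell types of the adult mouse heart: the receptors Adrb1, Adra1a and Adra1b, the adenylyl cyclases Adcy5, Adcy6 and Adcy9, and the receptor kinase Grk5. They were taken by symbol from the 32285 genes listed in every count matrix. The measurements are droplet-based single-nucleus RNA counts (10x Genomics), in which each transcript copy is counted once through a molecular barcode (a UMI). The labels describe adult hearts of female and male mice called wild type, either nontransgenic (nTg) or with a transgene that expresses cyclin A2 (Ccna2) constitutively (Tg), in 4 groups of 2 libraries. They name no promoter for the transgene and give no age, and do not say whether a library came from 1 animal, so every p-value measures only the spread between these libraries. The matrices of 3 libraries, the other nTg ones, were byte for byte those of libraries labelled Tg and had another number of columns than their own barcode lists, so they were not analysed here, which left 5 of 8. Values for 5 libraries are given in a fixed order: the library labelled nTg female 1, then those labelled Tg, females 1 and 2 before males 1 and 2.

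Noradrenaline and adrenaline reach heart cells through β receptors, which act through the stimulatory G protein on adenylyl cyclase, and through α1 receptors, which act through Gq on phospholipase C. The cyclases make cyclic AMP, and the protein kinase it activates phosphorylates calcium channels, phospholamban and sarcomere proteins, which strengthens and speeds the beat. Receptor kinases such as Grk5 phosphorylate activated receptors, which then bind arrestins and lose their signalling.

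The 5 libraries held between 25045167 and 38593706 UMIs, and 34299 nuclei passed the filters, 112 of whose barcode sequences occurred in more than 1 library. Clusters were named from listed markers: 6591 cardiomyocyte, 12645 fibroblast, 7052 endothelial, 2516 macrophage, 2187 pericyte, 1321 endocardial, 763 lymphatic endothelial and 512 smooth muscle nuclei made up the 8 types large enough to test, and 222 nuclei stayed unnamed. All 9 cardiomyocyte markers were highest in the cardiomyocyte nuclei, as were most markers of each other type in their own, except that 4 of 8 endothelial markers were higher in another type. Xist ran from 1273 to 1466 CPM (UMIs of a gene per 1000000 UMIs in the summed nuclei) over all kept nuclei of the female libraries and from 0.334 to 8.17 in the male ones. Ccna2, the gene of the transgene, went against 2 genotype labels: it stood at 447 CPM in the cardiomyocyte nuclei of the library labelled nTg female 1 and at 0.518 in those of the library labelled Tg female 1, against 825 in Tg female 2, 231 in Tg male 1 and 142 in Tg male 2. Genotypes are therefore given only as labels.

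All 7 genes matched the GRCm38 annotation (GENCODE vM21) by identifier. Adrb1, the β1 receptor, lies at chr19:56722199-56733113 on the plus strand, Adra1a, the α1A receptor, at chr14:66635251-66771168 on the plus strand, and Adra1b, the α1B receptor, at chr11:43774606-43901210 on the minus strand. The cyclase genes are Adcy5 at chr16:35154877-35305738 (plus), Adcy6 at chr15:98589973-98610076 (minus) and Adcy9 at chr16:4287529-4420498 (minus). Grk5, at chr19:60889749-61095968 on the plus strand, overlaps the gene Zfp950 on the opposite strand over 42129 bp. Whether the counting used strand is not given in the sources used here, so reads of these 2 genes may not have been kept apart. On the same strand, Adcy5 overlaps Gm49702 over 1797 bp and Adcy9 overlaps Gm6142 over 325 bp.

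RefSeq promoters (GRCm38.p6) were found for 5 of the 7 genes. The 250 bases before the start site are shown for the β1 receptor gene, which was high in both cardiomyocytes and macrophages, for the 2 starts of Adra1b, which was high in cardiomyocytes alone among the 8 types, and for Adcy5, which was highest in smooth muscle. Capitals mark the GC box (GGGCGG, either strand) and the core letters of the cyclic AMP response element (TGACG, either strand).
Adrb1, chr19:56721867-56722116, plus strand: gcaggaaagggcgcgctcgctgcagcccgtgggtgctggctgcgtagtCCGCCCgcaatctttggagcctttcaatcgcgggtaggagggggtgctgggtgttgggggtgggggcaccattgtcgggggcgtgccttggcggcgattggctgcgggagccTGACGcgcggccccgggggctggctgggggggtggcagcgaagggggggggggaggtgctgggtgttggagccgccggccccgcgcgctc
Adra1b, distal start, chr11:43901238-43901487, minus strand: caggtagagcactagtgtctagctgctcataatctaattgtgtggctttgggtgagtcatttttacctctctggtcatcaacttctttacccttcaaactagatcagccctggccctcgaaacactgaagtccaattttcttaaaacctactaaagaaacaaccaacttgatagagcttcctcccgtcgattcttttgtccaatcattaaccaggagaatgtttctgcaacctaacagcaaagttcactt
Adra1b, proximal start, chr11:43836490-43836739, minus strand: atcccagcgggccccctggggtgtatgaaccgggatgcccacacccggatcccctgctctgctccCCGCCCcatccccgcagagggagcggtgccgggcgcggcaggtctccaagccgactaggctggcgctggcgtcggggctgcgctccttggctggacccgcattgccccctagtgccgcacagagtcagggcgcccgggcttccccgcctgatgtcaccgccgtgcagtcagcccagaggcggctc
Adcy5, chr16:35154614-35154863, plus strand: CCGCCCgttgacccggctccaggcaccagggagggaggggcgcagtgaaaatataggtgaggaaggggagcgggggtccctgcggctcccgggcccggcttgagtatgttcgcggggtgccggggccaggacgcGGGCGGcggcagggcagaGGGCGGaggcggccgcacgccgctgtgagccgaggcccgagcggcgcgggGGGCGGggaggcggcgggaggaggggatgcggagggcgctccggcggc
The Adrb1 window holds 1 response-element core and 1 GC box, and its GC content is 74.0%. The distal Adra1b window holds neither motif and is 41.6% GC, while the proximal one holds 1 GC box and is 72.8% GC. The Adcy5 window, at 78.0% GC, holds 4 GC boxes. The median GC content of all RefSeq windows of this length was 52.4%, 32.7% of the 32851 windows hold a GC box and 17.8% hold the response-element core. Letters for a GATA site (AGATAA, either strand), a MEF2 element or a CArG box were found in none of the windows of these 5 genes, against 9.99%, 0.508% and 1.47% of all windows. These matches describe the letters only.

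**Figure D1:**
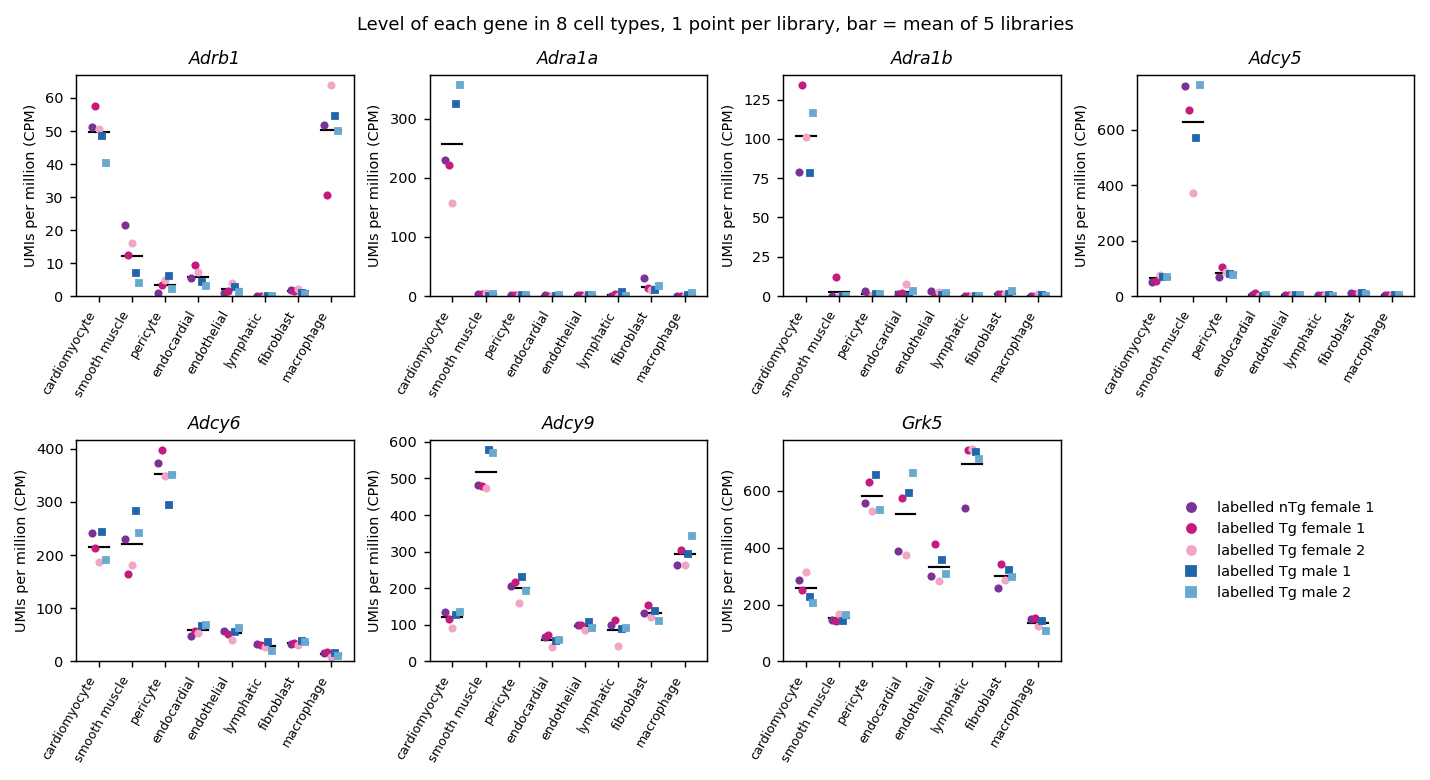
Level of each of the 7 genes (vertical axis, CPM) in 8 cell types (horizontal axis), 1 point per library (circles female, squares male), with a bar at the mean of 5 libraries. Adra1a and Adra1b stand high in cardiomyocytes alone, Adrb1 in cardiomyocytes and macrophages, Adcy5 and Adcy9 in smooth muscle, Adcy6 in pericytes and Grk5 in lymphatic endothelium.

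Adrb1, the receptor that carries most β-adrenergic signalling in heart muscle, was high in macrophage nuclei as well as in cardiomyocyte nuclei. In cardiomyocytes it was at 51.1, 57.5, 50.6, 48.6 and 40.3 CPM in the nTg library, the female Tg pair and the male Tg pair (mean 49.6 ± 6.17 SD, n = 5). In macrophages it was at 51.8, 30.6, 63.9, 54.7 and 50.04 CPM in the same order (mean 50.2 ± 12.2 SD, n = 5). The ranges overlapped, and the macrophage value was the higher one in 4 of 5 libraries. That order turned with called doublets kept (log2 ratio of macrophage to cardiomyocyte means -0.41, against 0.02) or with up to 10% mitochondrial UMIs (-0.07), and without any of the libraries labelled Tg female 2 (-0.08), Tg male 1 (-0.02) or Tg male 2 (-0.05). The next type, smooth muscle, averaged 12.1 ± 7.04 CPM, below cardiomyocytes in 5 of 5 libraries and without overlap. Lymphatic nuclei held 0 Adrb1 UMIs in 763 nuclei, a count that allows up to 1.52 CPM.

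The macrophage value was set beside other cardiomyocyte transcripts in the same nuclei. Adra1a averaged 258 CPM in cardiomyocytes and 1.19 CPM in macrophages, and Adra1b averaged 102 CPM and 0.359 CPM. The 9 cardiomyocyte markers summed to between 1438 and 2083 CPM in the macrophage sums, against 40639 to 52279 in cardiomyocytes. Each α1 receptor was thus near 0 in macrophages, while Adrb1 had about the same mean in both types. Between 25.1% and 32.3% of cardiomyocyte nuclei per library held an Adrb1 UMI, against 6.20% to 13.5% of macrophage nuclei, whose median depth was lower (1777 to 2744.5 UMIs against 5734 to 8016). With every nucleus thinned to 1000 UMIs, leaving out 69 cardiomyocyte and 137 macrophage nuclei that were shallower, the shares were 4.01% to 5.34% and 2.92% to 6.07%. None of the 763 lymphatic nuclei (median depth 1963 to 2791) held an Adrb1 UMI, which allows a share of up to 0.393%. Intervals and limits given here cover counting error only.

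Adra1a, whose product couples to Gq and is linked to growth and survival of heart muscle cells, was highest in cardiomyocytes. Among the 8 tested types it had a second, lower level in fibroblasts. In cardiomyocytes it was at 230 CPM in the library labelled nTg female 1, 221 in Tg female 1, 158 in Tg female 2, 325 in Tg male 1 and 357 in Tg male 2 (mean 258 ± 81.3 SD, n = 5). Fibroblasts followed at 30.5, 13.1, 10.1, 10.8 and 16.3 CPM in the same order (mean 16.2 ± 8.39 SD, n = 5), a 16.0-fold difference without overlap. Smooth muscle, lymphatic, pericyte, endothelial, macrophage and endocardial means lay between 0.570 and 3.16 CPM, and neighbours in that order overlapped. A UMI of Adra1a was found in 1.84% to 5.53% of fibroblast nuclei per library (median depth 2084 to 3027) and in 0% to 0.469% of endocardial nuclei (2067 to 3217), and in 45.6% to 79.7% of cardiomyocyte nuclei. With nuclei thinned to 1000 UMIs these shares were 0.525% to 2.74%, 0% to 0.427% and 11.5% to 27.8%. Among types too small to test, 3 of 71 B cell nuclei held 20 Adra1a UMIs. The 186 Schwann nuclei held 14 and averaged 26.4 ± 30.2 CPM, above the fibroblast mean, with 0 UMIs in 1 library. Mesothelial nuclei held 4 Adra1a UMIs, and T and NK cell nuclei held 0.

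The fibroblast level came from some fibroblast clusters and not others. The 1642 nuclei of a cluster led by Cilp, Wif1 and Dkk3, genes of secreted matrix and Wnt-pathway proteins, averaged 30.3 ± 18.2 CPM (n = 5). In this cluster the listed adipocyte markers had a slightly higher mean log2 fold over other nuclei (1.51) than the fibroblast markers (1.47). It was named fibroblast because 8 fibroblast markers were raised and the naming rule ranked types with 3 raised markers first. The 4656 nuclei of a cluster led by Grm8, Kcnip1 and Gfra1 averaged 25.3 ± 10.7 CPM. A cluster of 4697 nuclei led by Hmcn2 and Col15a1 averaged 4.11 ± 1.55 CPM, and a cluster of 1650 nuclei led by Cd248 and Gfpt2 averaged 1.67 ± 0.829 CPM. Every library of the first 2 clusters was above every library of the other 2, with 13.5 CPM the lowest of the former and 5.66 the highest of the latter. The clusters were formed without the 7 genes, but from the same nuclei, so these are descriptions with no test. The cluster led by Cilp, Wif1 and Dkk3 also had the highest mean of Adcy5 among fibroblasts, at 22.4 ± 10.1 CPM against 5.64 to 7.53 in the other 3, with overlapping libraries. Adra1b averaged 1.63 ± 0.857 CPM over all fibroblasts.

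Adra1b, the other α1 receptor of heart muscle, had the largest share of its UMIs in cardiomyocytes among the 7 genes. It was at 78.7, 134, 101, 78.2 and 117 CPM in the nTg library, the female Tg pair and the male Tg pair (mean 102 ± 24.3 SD, n = 5). The endocardial mean of 2.71 ± 2.82 CPM was next, 37.5-fold lower, and no library of any other type reached the lowest cardiomyocyte library. Of the UMIs in named types, cardiomyocytes held 98.0% for Adra1b, 95.5% for Adra1a and 84.6% for Adrb1. Such shares also rise with the number and depth of the nuclei of a type. Lymphatic nuclei held 0 Adra1b UMIs. In smooth muscle its 7 UMIs all came from the library labelled Tg female 1.

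**Figure D2:**
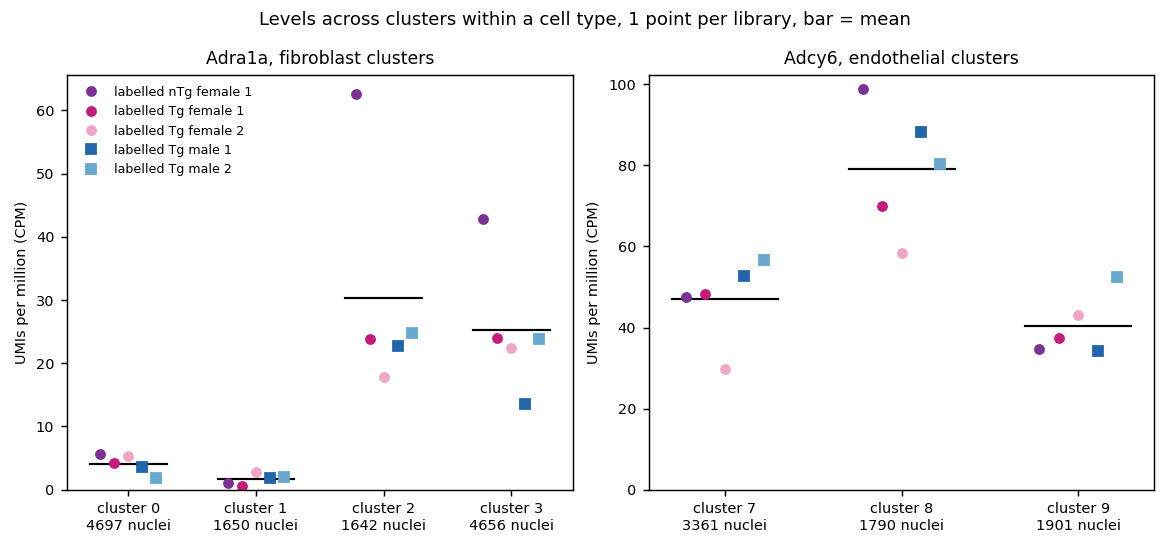
Adra1a in the 4 fibroblast clusters (left) and Adcy6 in the 3 endothelial clusters (right), in CPM, 1 point per library with a bar at the mean. Adra1a separates fibroblast clusters 2 and 3 (13.5 CPM or more) from clusters 0 and 1 (5.66 or less), and Adcy6 is highest in endothelial cluster 8 (mean 79.2).

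Adcy5, a calcium-inhibited cyclase, was highest in smooth muscle and not in cardiomyocytes. Smooth muscle stood at 756, 669, 373, 572 and 761 CPM in the nTg library, the female Tg pair and the male Tg pair (mean 626 ± 161 SD, n = 5). Pericytes averaged 82.8 ± 13.1 CPM and cardiomyocytes 63.5 ± 11.4 CPM. Smooth muscle was 7.56-fold above pericytes and 9.86-fold above cardiomyocytes, with no overlap between smooth muscle and pericytes. Pericytes were above cardiomyocytes in 5 of 5 libraries although their ranges overlapped. Fibroblasts averaged 9.42 ± 1.28 CPM and the endothelial, endocardial, macrophage and lymphatic means lay between 2.95 and 3.91 CPM.

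Adcy6, the closest relative of Adcy5, was highest in pericytes. Pericytes stood at 372, 397, 349, 293 and 351 CPM in the same library order (mean 353 ± 38.4 SD, n = 5). Smooth muscle (220 ± 47.9 CPM) and cardiomyocytes (215 ± 26.7 CPM) followed and could not be ordered, since smooth muscle was the higher in only 2 of 5 libraries. Pericytes were above smooth muscle in 5 of 5 libraries without overlap, by 1.603-fold. Endocardial (59.1 ± 8.53 CPM) and endothelial nuclei (53.2 ± 7.998 CPM) overlapped, and macrophages were lowest at 13.3 ± 3.55 CPM. Within the endothelium, the 1790 nuclei of a cluster led by Gja5, Sema3g and Sox17, genes known from arterial endothelium, averaged 79.2 ± 15.7 CPM of Adcy6. The clusters led by Car4 (3361 nuclei) and by Col13a1 (1901 nuclei) averaged 47.0 ± 10.3 and 40.4 ± 7.60 CPM. In these 3 clusters the lowest library of the first (58.4) was above the highest of the other 2 (56.7).

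Adcy9, a widely expressed cyclase that is insensitive to forskolin, was highest in smooth muscle and second in macrophages. Smooth muscle stood at 482, 480, 475, 578 and 570 CPM in the same library order (mean 517 ± 52.3 SD, n = 5). Macrophages stood at 265, 305, 262, 294 and 342 CPM (mean 294 ± 32.6 SD), below smooth muscle by 1.76-fold in 5 of 5 libraries and without overlap. Pericytes averaged 201 ± 26.8 CPM and were also without overlap from macrophages. Fibroblasts (132 ± 16.5 CPM) and cardiomyocytes (121 ± 18.6 CPM) overlapped, which left cardiomyocytes below 4 of the 8 types in the order of means. Cardiomyocyte nuclei held 37.7% of the Adcy9 UMIs, against 62.1% of Adcy5 and 70.8% of Adcy6 UMIs. Since these nuclei were many and deep, such shares do not measure enrichment.

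Grk5 was highest outside the muscle cells. Lymphatic endothelium stood at 542, 742, 748, 737 and 711 CPM in the nTg library, the female Tg pair and the male Tg pair (mean 696 ± 87.4 SD, n = 5). Pericytes averaged 582 ± 58.3 CPM and endocardial nuclei 519 ± 129 CPM. Lymphatic nuclei were above pericytes in 4 of 5 libraries, with overlapping ranges. Endothelial (331 ± 53.0), fibroblast (301 ± 33.1) and cardiomyocyte (257 ± 44.7 CPM) levels overlapped from each to the next, and cardiomyocytes held 35.2% of the Grk5 UMIs. Smooth muscle (151 ± 12.5 CPM) lay below cardiomyocytes in 5 of 5 libraries without overlap, and macrophages (134 ± 19.4 CPM) were lowest. Between 64.8% and 72.9% of lymphatic nuclei per library held a Grk5 UMI, against 16.1% to 26.1% of macrophage nuclei, at median depths of 1963 to 2791 and 1777 to 2744.5 UMIs.

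Profiles were compared by Pearson's r of log2(CPM + 1) over 40 sums (8 types in 5 libraries), as a description, since sums of 1 library share its depth and chemistry. Adra1a and Adra1b followed each other (r = 0.808), as did Adcy5 and Adcy6 (r = 0.801). Adrb1 followed neither α1 receptor closely (r = 0.378 and 0.485), and Grk5 ran against Adrb1 (r = -0.695) and Adcy9 (r = -0.681). Among 13862 genes that reached 10 CPM in at least 1 type, the genes most like Adrb1 were Cux1 (0.871), Hk2 (0.867) and Slc37a1 (0.861). For Adra1a they were Gpam, Arhgap20os and Trp63 (0.939 to 0.929), and for Adra1b they were Best3, D830005E20Rik and Fhl2 (0.936 to 0.927). Adcy5 was most like Gm47523 (0.949), Map3k20 and Carmn (both 0.933), the last a smooth muscle noncoding RNA gene. Adcy6 was most like Vcl, 4930415O20Rik and Msi2 (0.931 to 0.909), and Adcy9 was most like Cdk15, Gpr155 and Trpv2 (0.875 to 0.855). Grk5 was most like Nhsl1 (0.895), Zfp950 (0.888) and Nexmif (0.882). Zfp950 is the gene that overlaps Grk5 on the other strand.

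The rest of the pathway was described with 60 listed genes. By mean level among the 8 tested types alone, 12 were highest in cardiomyocytes, 11 in endothelium, 10 in macrophages, 9 in pericytes, 7 in fibroblasts, 5 in smooth muscle, 4 in lymphatic and 2 in endocardial nuclei, and some of these had a higher mean in a smaller type such as Schwann or B cells. None of the 6 other adrenergic receptors was highest in cardiomyocytes. Adra2b, an α2 receptor gene, averaged 19.4 ± 7.31 CPM in pericytes. Of the 7 other cyclases, 1 was highest in cardiomyocytes, Adcy8 at 14.7 ± 3.46 CPM, named after its values were seen. Adcy7 reached 277 ± 30.6 CPM in macrophages, and Adcy4 reached 136 ± 15.5 CPM in endothelium. None of the 7 G protein α subunit genes was highest in cardiomyocytes. Gnas, which encodes the stimulatory subunit, averaged 530 ± 75.3 CPM in lymphatic and 158 ± 12.98 CPM in cardiomyocyte nuclei, and Gnaq averaged 1022 ± 146 CPM in macrophages and 148 ± 19.2 CPM in cardiomyocytes.

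None of the 7 other kinase, arrestin and RGS genes had its highest mean in cardiomyocytes either, although for Rgs2, named after its values were seen, the macrophage mean (31.2 ± 11.2 CPM) and the cardiomyocyte mean (26.1 ± 10.2 CPM) overlapped. Grk3 averaged 183 ± 13.4 CPM in pericytes and 23.5 ± 5.08 in cardiomyocytes, and Arrb2, a β-arrestin, averaged 338 ± 57.3 CPM in macrophages and 1.12 ± 0.497 in cardiomyocytes. In the α1 arm, 0 of 7 genes were highest in cardiomyocytes: the phospholipase gene Plcb4 averaged 3347 ± 620 CPM in endothelium and 179 ± 27.2 in cardiomyocytes, and Plce1 averaged 1054 ± 222 CPM in lymphatic and 149 ± 24.0 in cardiomyocyte nuclei. Of the 14 genes for cyclic AMP effectors and their anchors, 3 were highest in cardiomyocytes, among them the anchor Akap6 at 1241 ± 216 CPM, while Akap13 was highest in fibroblasts at 1159 ± 71.0 CPM. Of the 8 genes listed here as targets of protein kinase A, Camk2d among them, 7 were highest in cardiomyocytes. But 4 of these (Ryr2, Pln, Tnni3 and Mybpc3) are among the markers that named the type, so their place was fixed by the naming. The ryanodine receptor gene Ryr2 averaged 9614 ± 834 CPM there and the calcium channel gene Cacna1c 6863 ± 633 CPM. Of the 4 genes for catecholamine clearance, 1, Maob, was highest in cardiomyocytes (54.5 ± 13.2 CPM).

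**Figure D3:**
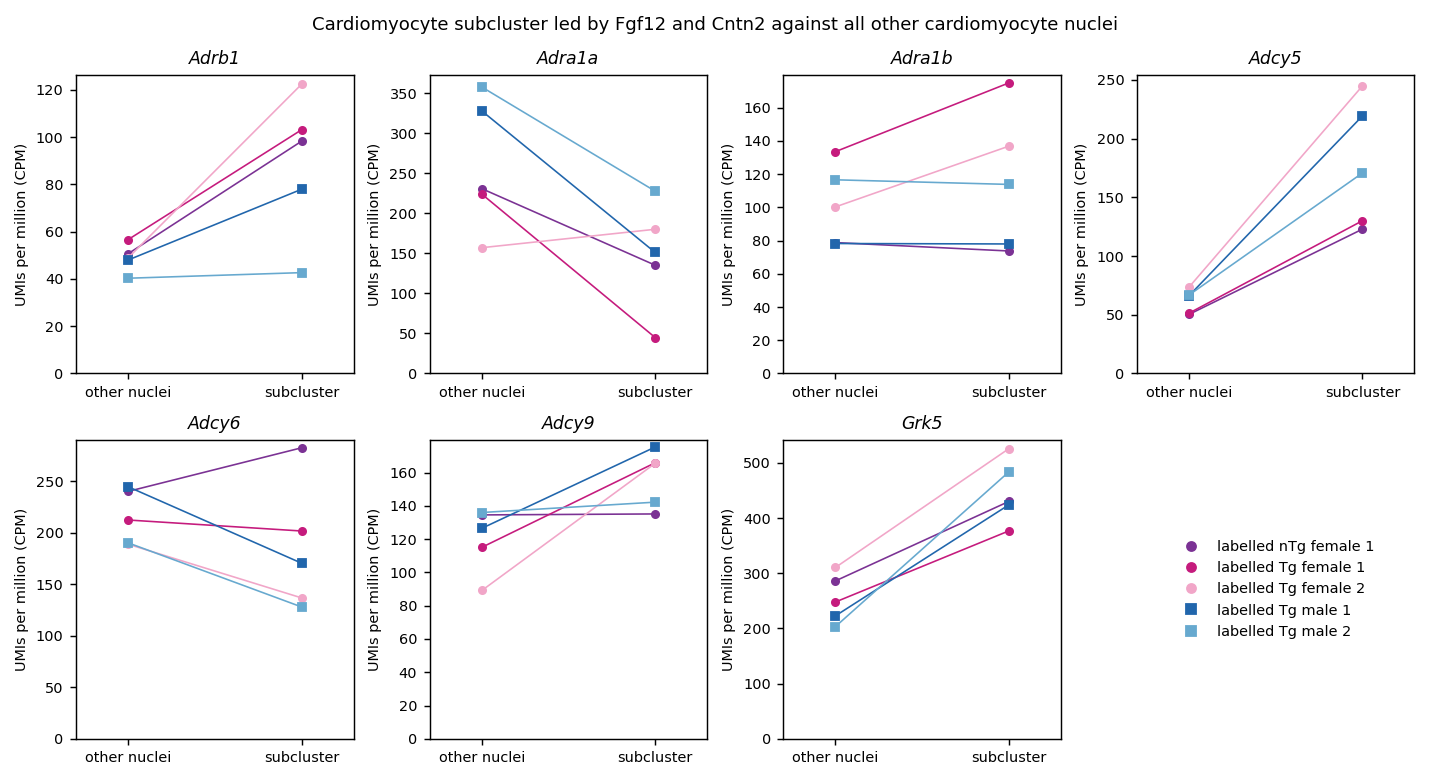
Level of each of the 7 genes (CPM) in the 119 cardiomyocyte nuclei of the subcluster led by Fgf12 and Cntn2 and in all other cardiomyocyte nuclei, with 1 line per library. Adcy5, Grk5, Adrb1 and Adcy9 rise along all 5 lines, and Adra1a and Adcy6 fall along 4 of 5.

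A small group of cardiomyocyte nuclei stood apart in these genes. Cardiomyocytes were divided again without the 7 genes, and 1 subcluster of 119 nuclei, 9 to 42 per library, was led by Fgf12 and Cntn2, with 7 of 8 atrial and 6 of 8 conduction-system markers raised, so that it is called here by its leading genes. Adcy5 was at 123, 130, 245, 219 and 171 CPM there in the usual library order, against 50.3 to 73.6 CPM in the other cardiomyocyte nuclei (2.88-fold, higher in 5 of 5 libraries, without overlap). Grk5 averaged 448 ± 57.7 CPM against 254 ± 44.2 (1.76-fold, 5 of 5 libraries, without overlap). Adrb1 averaged 88.9 ± 30.3 CPM against 49.0 ± 5.89 (5 of 5 libraries, with overlap). Adra1a averaged 148 ± 67.4 CPM against 259 ± 82.0 and was higher in only 1 of 5 libraries, while Adra1b (115 ± 42.3 against 101 ± 24.0) was higher in 2 of 5. Adcy9 averaged 157 ± 17.2 CPM against 120 ± 19.3 (higher in 5 of 5 libraries, with overlap), and Adcy6 184 ± 62.4 against 215 ± 26.6 (higher in 1 of 5). The counts were small: 130 Adcy5, 67 Adrb1 and 93 Adra1a UMIs in all, with a median depth of 4864 UMIs per nucleus. The 7 markers of smooth muscle, the type with most Adcy5, summed to between 669 and 999 CPM in this subcluster and to between 599 and 1015 in all cardiomyocytes. Most of that sum was Myocd, which averaged 748 CPM in cardiomyocytes and 653 in smooth muscle, so the sum says little about smooth muscle RNA. In the subcluster 2 of the 7 markers were raised. A part of smooth muscle RNA in the Adcy5 level was not tested. Larger subclusters differed too. Adra1b averaged 134 ± 32.1 CPM in the 1622 nuclei of a subcluster led by Rp1 and Epha6, against 90.9 ± 22.8 in the rest, higher in 5 of 5 libraries. Grk5 averaged 184 ± 33.4 CPM in the 1815 nuclei of a subcluster led by Stab2, Ltbp4, Hbb-bs and Dcn, genes of other cell types among its leading genes, against 274 ± 49.6 in the rest, lower in 5 of 5 libraries, and its median depth was 4852 UMIs.

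Female and male libraries were compared within each type with edgeR's quasi-likelihood test on summed counts, with the genotype label as a covariate and Benjamini-Hochberg adjustment over all genes tested. The covariate fits the only nTg library by itself, so each log2 difference and p below rests on the 2 female and 2 male libraries labelled Tg, while means, ranges and overlaps are over 3 female and 2 male libraries. Of 36 tests of the 7 genes over 8 types, 0 passed an adjusted p of 0.05 and 1 (Adra1a in cardiomyocytes) had an unadjusted p under 0.05. Genes of all kinds that passed were few as well: 0.0261% in cardiomyocytes, 0.168% in endocardial, 0.114% in endothelial, 0.367% in fibroblast, 0.222% in lymphatic, 0.29% in macrophage, 0.186% in pericyte and 0.129% in smooth muscle sums. On data simulated for the cardiomyocyte comparison, 200 of 15322 genes were changed, and the test recovered 34% of 2-fold and 83% of 4-fold changes. For smooth muscle, with 200 of 5439 genes changed, it recovered 7% and 82%. Low-count genes were not among the changed ones, and noise followed the trend over genes rather than each gene's own spread. These shares therefore do not cover low-count or more variable genes.

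**Figure D4:**
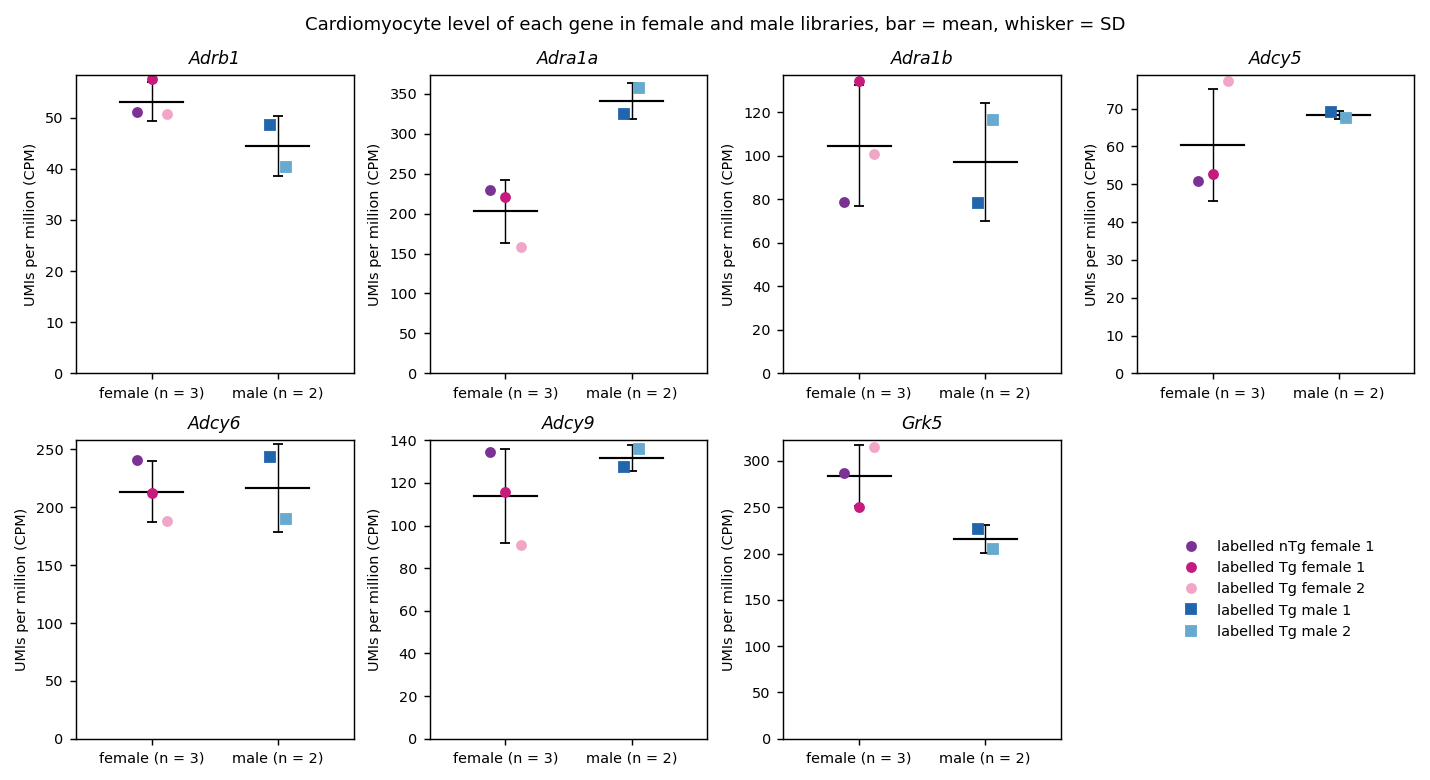
Cardiomyocyte level of each gene (CPM) in 3 female and 2 male libraries, 1 point per library, with a bar at the mean and a whisker of 1 SD. The sexes do not overlap for Adra1a (male higher), Adrb1 and Grk5 (female higher). Of all cardiomyocyte genes with a mean of at least 10 CPM, 21.3% do not overlap.

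The largest of these differences in cardiomyocytes was in Adra1a, for which the female libraries lay between 158 and 230 CPM and the male ones at 325 and 357 CPM. The female mean was 203 ± 39.4 (SD, n = 3) and the male mean 341 ± 22.8 (n = 2), with no overlap. The log2 difference between the Tg females and males was -0.89 (SE 0.22, edgeR adjusted p = 0.465), and without the covariate, over all 5 libraries, it was -0.77 (edgeR adjusted p = 0.733). The call depended on the fit: adjusted p was 0.0367 by DESeq2, 0.0498 by edgeR with no filter on low counts, 0.0227 by edgeR without the library labelled Tg female 1, and 0.0148 by edgeR without both libraries whose Ccna2 goes against the label. Over all 16 alternatives it ran from 0.0148 to 0.797, and the male value was higher in each. Within each of the 4 cardiomyocyte subclusters of at least 500 nuclei both male libraries were above all 3 female ones. These subclusters hold nuclei of the same 5 libraries, so they are not further replicates. The share of all genes apart by sex in them was not counted. Marker lists of other cells had sums that moved with sex in the cardiomyocyte nuclei. The 8 fibroblast markers summed to 102 to 266 CPM in female and 65.8 to 78.1 in male libraries. The 8 pericyte markers summed to 340 to 379 and 260 to 261, and the 7 smooth muscle markers to 751 to 1015 and 599 to 695. The 10 macrophage markers summed to 114 to 143 and 96.8 to 98.8, and the 7 lymphatic markers to 145 to 208 and 132 to 144, while the other 7 lists overlapped. Single genes made up most of some of these sums. Myocd, of the smooth muscle list, averaged 748 CPM in cardiomyocyte nuclei, above its 653 in smooth muscle itself. Abcc9, of the pericyte list, averaged 234 CPM in cardiomyocyte nuclei, and Prox1, of the lymphatic list, 143. The single genes behind the fibroblast and macrophage sums are not given here. The part of other cells in the Adra1a difference was not tested.

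Grk5 and Adrb1 went the other way in cardiomyocytes. Grk5 was at 287, 250 and 315 CPM in the female libraries and at 227 and 205 in the male ones (log2 difference 0.34, SE 0.18, edgeR adjusted p = 0.800). Adrb1 was at 51.1, 57.5 and 50.6 CPM in female and 48.6 and 40.3 in male libraries (log2 difference 0.24, SE 0.18, edgeR adjusted p = 0.879). These 3 of 7 genes had sexes that did not overlap, against 21.3% of all cardiomyocyte genes with a mean of at least 10 CPM. In the 4 large subclusters, which are parts of the same libraries and not further replicates, Grk5 kept the sexes apart in 4 and Adrb1 in 2. Adra1b, Adcy5, Adcy6 and Adcy9 had overlapping sexes, with log2 differences between -0.39 and 0.23, and the sign of the Adra1b, Adcy5 and Adcy6 differences turned when 1 library was left out.

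In the other types the sexes also differed by less than the tests could call. Smooth muscle Adcy9 was at 482, 480 and 475 CPM in the female and 578 and 570 in the male libraries, a log2 difference of -0.22 (SE 0.28, edgeR adjusted p = 0.999). Smooth muscle Adcy6 was at 230, 163 and 181 CPM in female and 282 and 242 in male libraries (log2 difference -0.57, SE 0.30, edgeR adjusted p = 0.999). Adcy6 was also higher in males without overlap in endocardial and fibroblast sums, and overlapped in endothelial, lymphatic, macrophage and pericyte sums. The sexes did not overlap for 2 of 3 followed genes tested in endocardial sums and 2 of 7 in fibroblast sums. They did not overlap for 2 of 4 in smooth muscle sums. In endothelial, macrophage and pericyte sums this held for 0 of 4 each, and in lymphatic sums for 0 of 3. The share of all genes without overlap was not counted in these types, so these gaps cannot be set against a background. Endocardial Grk5 was at 388, 576 and 374 CPM in female and 592 and 661 in male libraries (log2 difference -0.44, SE 0.26, edgeR adjusted p = 0.786), opposite in direction to cardiomyocytes. Marker sums were apart by sex in the endocardial nuclei as well: the 8 endocardial markers summed to 4353 to 7759 CPM in female and 7900 to 8345 in male libraries, and the 8 endothelial markers to 6224 to 6996 and 7642 to 7883. The 8 fibroblast markers summed to 1486 to 2127 and 1136 to 1343, the 9 cardiomyocyte markers to 1857 to 2590 and 1552 to 1703, the 10 macrophage markers to 158 to 241 and 101 to 109, and the 8 B cell markers to 2595 to 3202 and 1924 to 2546. Their part in the Grk5 difference was not tested. Fibroblast Adrb1 was at 1.67 to 2.24 CPM in female and 0.659 to 0.922 CPM in male libraries, from 52 UMIs in all. Macrophage Adrb1 (48.7 ± 16.9 in female, 52.4 ± 3.29 in male libraries) and Adcy9 (277 ± 23.8 and 318 ± 33.5 CPM) overlapped. Of 341 tests of pathway genes in the 8 types, 1 passed: Grk4, another receptor kinase gene, stood in macrophages at 39.9 and 33.6 CPM in the Tg females and at 101 and 112 CPM in the Tg males (log2 difference -1.54, SE 0.23, edgeR adjusted p = 0.0110), with 79.9 CPM in the nTg female. It no longer passed without the genotype covariate, where the nTg female counts among the females (log2 difference -1.02, adjusted p = 0.400, edgeR), or without the library labelled Tg male 1 (adjusted p = 0.0528, edgeR).

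The genotype label could be compared only as 1 library against 4, which has no replicate check and no test. In cardiomyocytes the library labelled nTg lay within the range of the 4 libraries labelled Tg for 6 of 7 genes. Adcy5 was below it, at 50.9 CPM (95% exact Poisson interval 46.5 to 55.6) against 52.7 to 77.4, where 32.8% of all cardiomyocyte genes with at least 10 CPM lay outside. None of the 7 was 2-fold from the Tg mean and outside the range, against 0.797% of those genes. In fibroblasts Adra1a was at 30.5 CPM in the library labelled nTg (interval 26.5 to 35.1) and at 10.1 to 16.3 in the 4 labelled Tg, a log2 difference of 1.28, where 0.553% of fibroblast genes of at least 10 CPM were outside and 2-fold away. The difference was present in both clusters that carried the gene, at 62.6 CPM against 17.8 to 24.8 in the cluster led by Cilp and at 42.8 against 13.5 to 23.9 in the cluster led by Grm8. The 9 cardiomyocyte markers summed to 1956 CPM in the fibroblasts of that library and to 1272 to 1840 in the others, and Adra1b stood at 1.52 CPM there against 1.05 to 3.13. Grk5 in lymphatic endothelium was at 542 CPM (interval 470 to 621) in the library labelled nTg and at 711 to 748 in the others. Since Ccna2 goes against this library's label, genotype and library cannot be told apart.

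**Figure D5:**
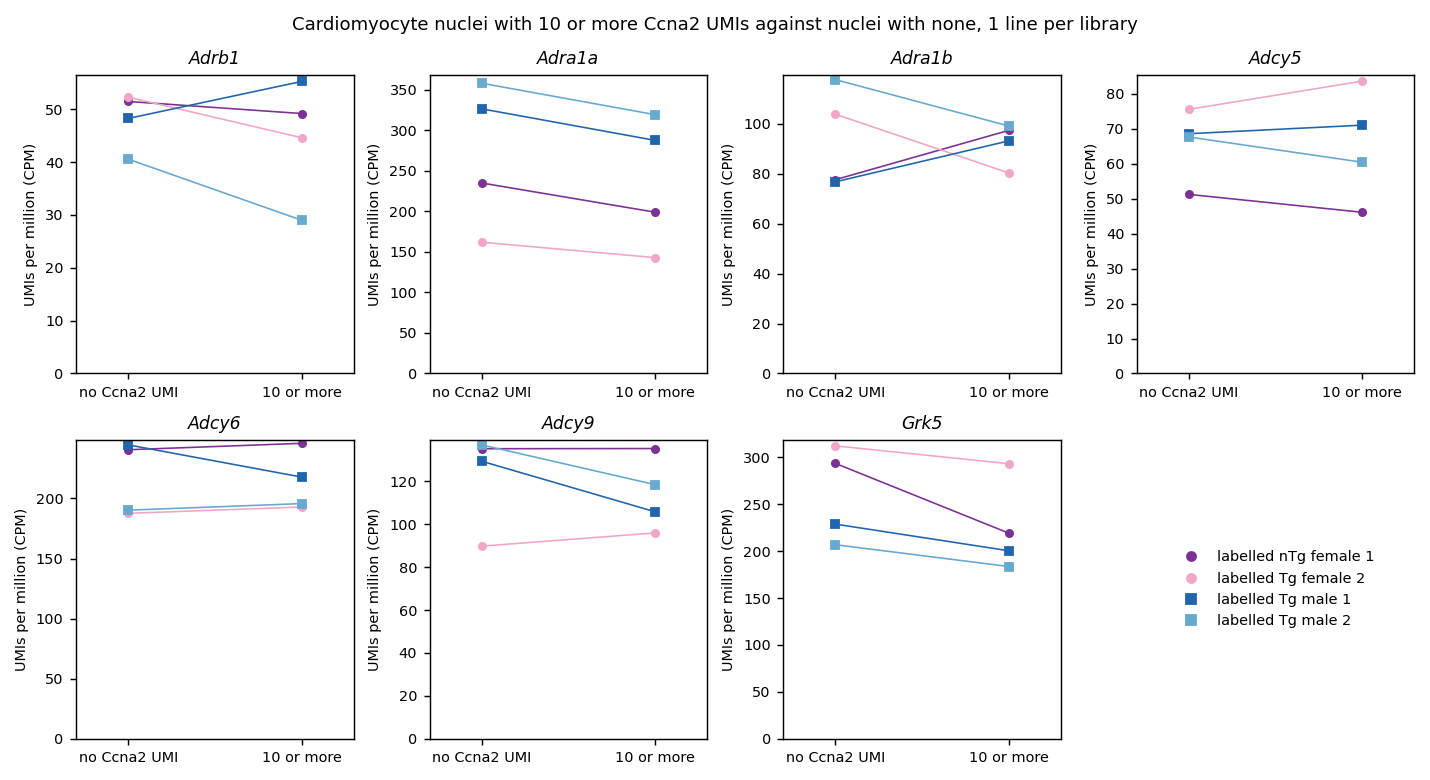
Level of each gene (CPM) in cardiomyocyte nuclei with no Ccna2 UMI and in those with 10 or more, 1 line for each of 4 libraries. The Adra1a and Grk5 lines all fall, and the other genes have lines in both directions.

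Within libraries, cardiomyocyte nuclei with at least 10 Ccna2 UMIs were compared with nuclei holding none, with the library as a block in edgeR. There were 110, 114, 69 and 36 such nuclei in nTg female 1, in Tg female 2 and in the 2 male libraries, and 0 in Tg female 1, which was left out. Adra1a was at 199, 143, 287 and 319 CPM in the Ccna2-high nuclei and at 235, 162, 326 and 358 in the Ccna2-free nuclei of the same libraries, lower in 4 of 4 (log2 difference -0.19, SE 0.07, edgeR adjusted p = 0.620). Grk5 was at 219, 293, 200 and 184 CPM against 294, 312, 229 and 207, also lower in 4 of 4 (log2 difference -0.22, SE 0.07, edgeR adjusted p = 0.505). These 2 of 7 genes were lower in every library, against 8.29% of genes of that level, and 0 of 7 passed the test, against 0.261% of all genes tested. The unadjusted p of both was under 0.05 (0.0115 and 0.00573). Of the 7 genes, 0 had such a p without the library labelled nTg female 1 or with no block on library, and 1 had after thinning to 2000 UMIs and by DESeq2, which called none of the 7 either. Adrb1, Adra1b, Adcy5, Adcy6 and Adcy9 had log2 differences between -0.09 and 0.02, and 0 of the 44 pathway genes tested passed. The Ccna2-high nuclei were deeper in all 4 libraries, with medians of 8090.5, 6826.5, 7994 and 8753 UMIs against 7714, 5685, 7771 and 7973. On data simulated for this comparison in the same way, with 200 of 11877 genes changed, the test recovered 66% of 2-fold and 91% of 4-fold changes.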

How the data were processed

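Per the file headers, the authors made the deposited UMI counts with Cell Ranger 7.0.0, on mm10 per the submitters' processing notes. Which annotation was used, whether intronic reads were counted and how cells were called are not given in the sources used here. The counts are whole numbers with no normalization. Barcodes with at least 200 genes and under 5% mitochondrial UMIs were kept, and scrublet calls (scanpy 1.11.5, expected rate 6%, scored on barcodes under 10% mitochondrial UMIs, since scoring under 5% called none in 1 library) were removed, 7.52% to 11.2% per library. Nuclei were clustered on 2000 variable genes and 30 components (Leiden, resolution 1) without the 7 genes, the pathway genes, Ccna2 and sex-linked genes. A cluster needed 3 raised markers for a name, and types with 3 were ranked first, a rule changed after the clusters were seen. UMIs were summed per library and type, given as CPM, and tested with edgeR 4.0.16 (TMM, filterByExpr, R 4.3.3) on 5 libraries with genotype label as covariate. DESeq2 1.42.0, filters, blocks and left-out libraries were alternatives. The code was tested on simulated data. Always named were the 7 genes, then pathway genes past the threshold, the 2 highest per role, and the 3 most alike. Some genes that this rule names are not reported here. The members and lists were chosen with earlier results of these data known.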

Additional observations from a re-analysis of the deposited data

Results flagged for a closer look

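Grk5 differed between the sexes in opposite directions in 2 cell types. The log2 difference, female minus male, fitted on the libraries labelled Tg, was 0.34 in cardiomyocytes, where all 3 female libraries were above both male ones, and -0.44 in endocardial nuclei, where both male libraries were above all 3 female ones. Of all cardiomyocyte genes with a mean of at least 10 CPM, 21.3% had sexes that did not overlap. That share was not counted in endocardial nuclei. The 2 log2 differences lie 0.78 apart. The difference between the cell types was not tested, and neither value passed the adjusted threshold on its own. In the same endocardial sums the 8 endocardial markers were also higher in the males (7900 to 8345 against 4353 to 7759 CPM). The fibroblast, cardiomyocyte and macrophage markers were higher in the females, at 1486 to 2127 against 1136 to 1343 CPM, 1857 to 2590 against 1552 to 1703 CPM and 158 to 241 against 101 to 109 CPM. The mean Grk5 level was 301 CPM in fibroblasts, 257 in cardiomyocytes and 134 in macrophages, against 519 in endocardial nuclei. The part of these cells in the Grk5 difference was not tested.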

How the results depend on the processing

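The count of genes called between the sexes depended strongly on the fit, and the cause was not tested. In cardiomyocytes it was 4, against 90 by DESeq2, 226 with no filter, 0 with at least 10 UMIs in every library, 311 without both libraries whose Ccna2 goes against the label and 4 to 217 with each library left out. In the same order of settings, endocardial counts were 27, 168, 6, 178 and 16 to 58 against 16, and endothelial counts 103, 393, 9, 513 and 15 to 418 against 15. Fibroblast counts were 218 by DESeq2, 751 with no filter, 865 without both libraries and 54 to 966 with each left out, against 57. Lymphatic counts were 62 with no filter, 2 with at least 10 UMIs, 180 without both and 13 to 169, against 16. Macrophage counts were 250 with no filter, 363 without both and 24 to 576, against 32, and pericyte counts 95, 74 and 16 to 86, against 19. Smooth muscle counts were 4 by DESeq2, 87 with no filter, 18 with at least 10 UMIs, 48 without both and 6 to 149, against 7. Without the genotype covariate the counts were 6 in endothelial, 19 in fibroblast, 6 in lymphatic, 8 in macrophage, 6 in pericyte and 4 in smooth muscle sums. Same-numbered Tg libraries did not deviate together (r = 0.0281 over 15133 genes). With a replicate block the counts were 124 in cardiomyocyte, 193 in endocardial, 90 in endothelial, 266 in fibroblast, 3 in lymphatic, 220 in macrophage, 99 in pericyte and 40 in smooth muscle sums, and none of the 7 genes was called. Outside cardiomyocytes 0 of the 7 genes were called under any of 12 alternatives per type. In cardiomyocytes 1, Adra1a, was called by DESeq2, with no filter, without both libraries and without the library labelled Tg female 1 (0 to 1 with each left out). Signs turned for small differences in cardiomyocytes: Adra1b to -0.0233 without both libraries (-0.0497 to 0.559 with each left out), Adcy5 to 0.106 (-0.404 to 0.119) and Adcy6 with each left out (-0.317 to 0.00833). Between Ccna2-high and Ccna2-free nuclei 31 genes were called, against 17 by DESeq2, 72 with no filter, 13 with no replicate block (no block on library), 13 after thinning and 22 to 37 with each library left out. There the Adra1b difference was -0.0273 with no filter, -0.0200 with no block and -0.0332 after thinning (-0.114 to 0.151 with each left out). Adcy5 was -0.0420 with no filter and -0.00773 at 3 or more Ccna2 UMIs (-0.0840 to 0.0557), and Adcy6 was 0.00948 by DESeq2 (-0.0384 to 0.0553). The log2 ratio of Adrb1 in macrophages to cardiomyocytes was -0.0680 at 10% mitochondrial UMIs, -0.413 with doublets kept and -0.0786 to 0.209 with each library left out, while the top ratio of each of the other 6 genes kept its direction under 10 alternatives. The low UMI counts of Adrb1, Adra1a and Adra1b outside their main types limit their order there.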
